A study of Mus musculus with 2 samples.

Results

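Regulatory T cells and gamma-delta T cells were taken from single-cell RNA of CT26 tumors by their transcripts. Barcodes with mitochondrial UMIs (unique molecular identifiers, 1 per captured RNA molecule) under 20% were used. A barcode was kept with 1 or more UMI of the CD3 genes *Cd3d*, *Cd3e* and *Cd3g*, no UMI of *Cd8a* or *Cd8b1*, and fewer than 20 *Lyz2* UMIs per 10000 UMIs of the barcode. *Foxp3* then placed a barcode among the regulatory T cells, and *Il17a*, *Scart1*, *Scart2* or *Trdv4* placed it among the gamma-delta T cells. The rule found 44 *Foxp3* barcodes, 24 untreated (UT) and 20 BUP-treated, and 83 barcodes by the gamma-delta genes, 54 UT and 29 BUP-treated. No barcode met both rules, so 127 of 13939 barcodes are described. Members were thus chosen by measured UMIs of these genes, so the counts and the levels of the placing genes are descriptions.

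The tumors were CT26, a colon carcinoma line of the mouse, and had been implanted subcutaneously in male BALB/c mice aged 6 to 8 weeks. UT mice had the tumor and no treatment, and BUP-treated mice received BUP-Gel, a hydrogel with 40 mg/kg of the local anesthetic bupivacaine. Tumors of 3 mice were pooled into 1 library per condition, from sorted live CD45+ and CD45- cells that were mixed at 4 to 1 by the labels and at 3 to 1 by the study's methods. With 1 library per condition there was no test between conditions, and every 95% interval given covers counting error only. Sequencing gave 83228442 UMIs over 7556 UT barcodes and 89918925 over 7221 BUP barcodes, of which 7163 and 6776 were kept. Kept barcodes had medians of 8430 and 10420 UMIs, and 76 barcode sequences occurred in both libraries.

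Regulatory T cells are CD4 T cells that restrain other immune cells. Their identity rests on the transcription factor FOXP3, and they carry the IL-2 receptor alpha chain (*Il2ra*), the inhibitory receptor CTLA4, the costimulatory receptors ICOS and OX40 (*Tnfrsf4*) and the factor Helios (*Ikzf2*). Gamma-delta T cells use a receptor of a gamma and a delta chain in place of alpha and beta. A subset of them makes IL-17A without prior priming and lives in barrier tissues, and SCART1 and SCART2 are scavenger receptors of such IL-17-producing cells.

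The label of regulatory T cells held for the *Foxp3* barcodes. At least 3 of 6 genes that the rule did not use (*Icos*, *Tnfrsf4*, *Ikzf2*, *Il2ra*, *Ctla4* and *Tnfrsf18*, which encodes GITR) were found in 43 of 44 barcodes, and all 6 were found in 23. *Cd4* itself had a UMI in 13 of 24 UT and 12 of 20 BUP barcodes. Among the other T barcodes without CD8 and without a placing gene, at least 3 of the 6 genes were found in 40 of 260 UT and 26 of 200 BUP barcodes. Because CD8 T cells of these tumors carry several of the 6 genes as well, 72.5% of UT and 63.9% of BUP CD8 T barcodes also reached 3. CD8 T barcodes are those with 2 or more CD8 UMIs, CD3, low *Lyz2* and no placing gene.

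The label of gamma-delta T cells went against the data for 57 of the 83 barcodes. These 57, 37 UT and 20 BUP-treated, were placed by *Trdv4* alone, a delta chain variable segment on chromosome 14 (GRCm39, 54312362 to 54312972, plus strand) that lies 67.3 kb before the delta constant gene *Trdc*. *Ncr1*, an activating receptor that defines NK cells, had a UMI in 54 of these 57 barcodes and in 1 of the other 26. *Tyrobp*, the adaptor of NK receptors, was found in 36 of 37 and 20 of 20, and the NK cell factor *Eomes* in 30 of 37 and 12 of 20. At least 1 of 5 genes of IL-17-producing gamma-delta cells (*Blk*, *Il23r*, *Sox13*, *Trgv6* and *Actn2*) was found in 1 of the 57 barcodes and in 23 of the 26. *Cd3g* was the only CD3 gene in 36 of the 57 and in none of the 26, and 40 of the 83 barcodes had been placed by a single *Trdv4* UMI. The 57 are therefore called *Trdv4*-only barcodes and the 26 with *Il17a*, *Scart1* or *Scart2* are called *Il17a*/*Scart* barcodes, a division that was made after the values had been seen.

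**Figure D1:**
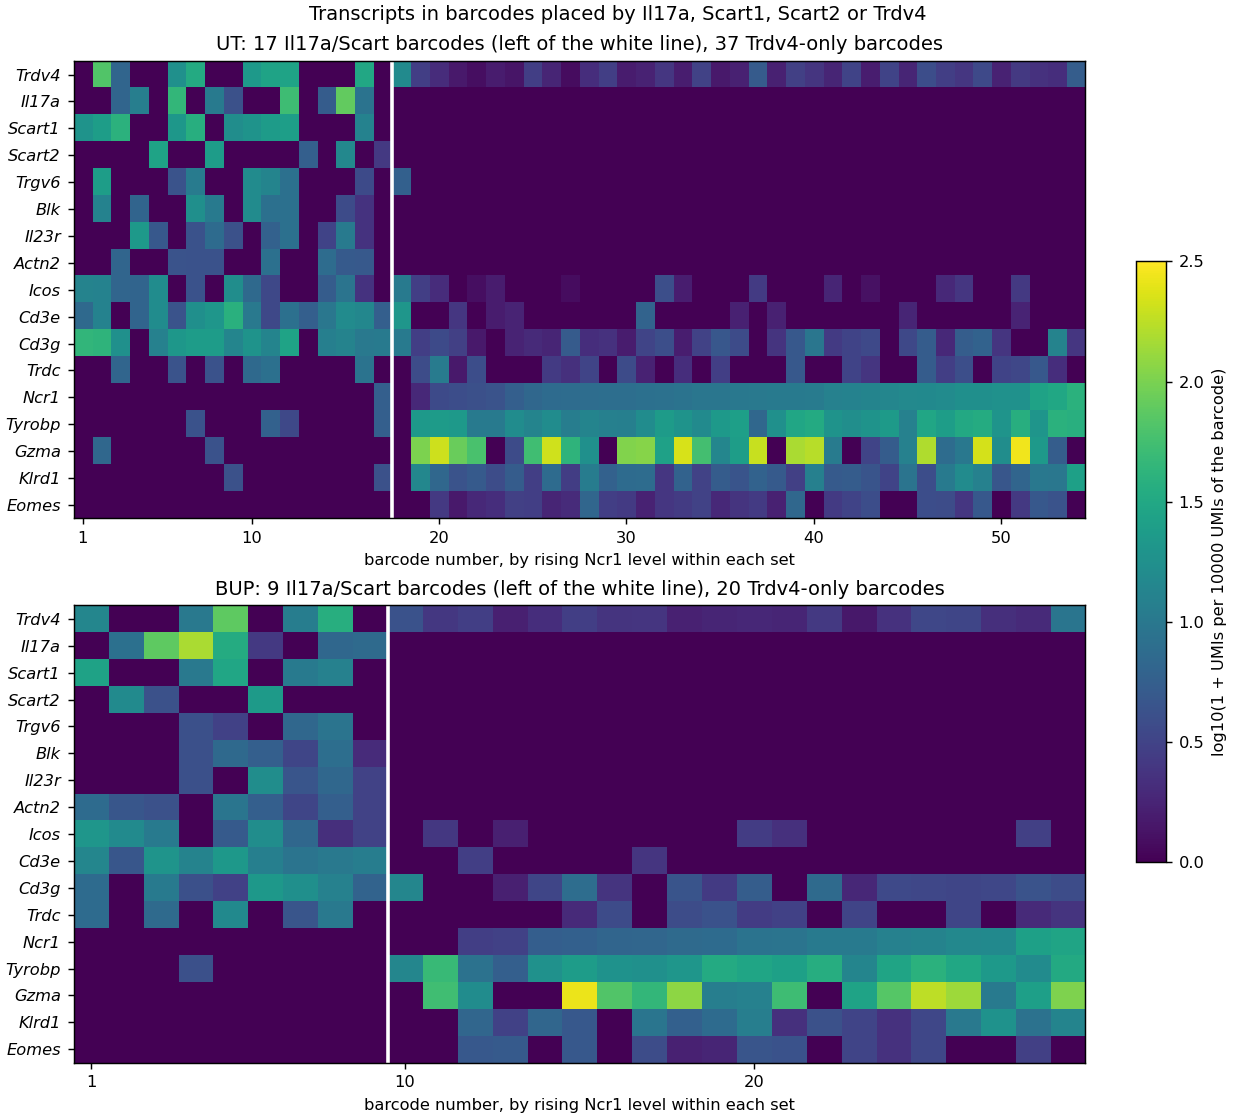
Each column is 1 barcode of the gamma-delta rule (54 UT in the upper panel, 29 BUP in the lower), each row a gene, and the color is log10(1 + UMIs per 10000 UMIs of the barcode). *Il17a*/*Scart* barcodes stand to the left of the white line with *Trgv6*, *Blk*, *Il23r* and *Cd3e*, and *Trdv4*-only barcodes to the right with *Ncr1*, *Tyrobp*, *Gzma* and *Klrd1*.

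*Trdv4* transcripts were also frequent outside the T cells. Among CD3-negative *Ncr1* barcodes, 118 of 339 UT (34.8%, exact binomial interval 29.7 to 40.1%) and 105 of 281 BUP barcodes (37.4%, 31.7 to 43.3%) had a *Trdv4* UMI, and *Trdc* was found in 170 and 145 of them. After thinning each barcode to 2000 UMIs the *Trdv4* shares were 12.2% and 12.6%. As background, 22 of 1305 UT and 12 of 624 BUP C1q macrophage barcodes had a *Trdv4* UMI, which became 0.239% and 0.165% after thinning. CD8 T barcodes, here with the placing genes allowed, had it in 4 of 452 and 7 of 754. The median depths were 7297 and 7819 UMIs for *Ncr1* barcodes and 13257 and 12605.5 for macrophage barcodes, so the macrophages were deeper and had the lower share.

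*Trdv4*-only barcodes were set against the CD3-negative *Ncr1* barcodes. Over 6560 genes, 0.0457% were at least 2-fold higher in *Trdv4*-only barcodes in both libraries and 0.854% at least 2-fold lower, and the median log2 ratio was -0.01. Of 12 tested cytotoxic genes none was 2-fold different, with a median of 0.01. Of 21 tested type I interferon response genes 1 was at least 2-fold lower and 16 were negative in both libraries, with a median of -0.81 and none positive in both. All 5 tested MHC class II genes were negative in both libraries, 2 of them past 2-fold, with a median of -1.41. Of 4 tested erythroid genes, a sign of red cell RNA, 3 were at least 2-fold lower, with a median of -4.46, and 1 *Ncr1* barcode of each library held 552 of 558 UT and 494 of 495 BUP UMIs of the hemoglobin gene *Hbb-bs*. The 13 cytotoxic genes, which include granzymes, perforin (*Prf1*) and *Nkg7*, summed to 30954 UMIs per 1000000 (CPM) in UT and 24454 in BUP *Trdv4*-only barcodes, beside 27783 and 24416 in the *Ncr1* barcodes. In *Il17a*/*Scart* barcodes the same 13 genes summed to 1390 and 764 CPM. The *Trdv4*-only barcodes were also deeper, with medians of 12051 UT and 8113.5 BUP UMIs against 3155 and 4817 for *Il17a*/*Scart* barcodes. The part of depth in which barcodes *Trdv4* placed was not tested.

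The *Il17a*/*Scart* barcodes, 17 UT and 9 BUP-treated, carried genes of the program of IL-17-producing gamma-delta T cells, while their receptor genes were mixed. *Blk*, a Src-family kinase of these cells, was found in 9 of 17 UT and 6 of 9 BUP barcodes at 395 and 330 CPM and in 0 of 37 and 0 of 20 *Trdv4*-only barcodes. *Il23r*, the receptor for the cytokine that maintains IL-17 production, was found in 10 of 17 and 5 of 9, and *Il1r1*, the IL-1 receptor, in 6 of 17 and 8 of 9. *Trdc* was found in 6 of 17 and 5 of 9 barcodes and *Trac*, the alpha chain constant gene, in 5 of 17 and 1 of 9. Of the beta chain constant genes, *Trbc1* was found in 4 of 17 and 5 of 9 barcodes and *Trbc2* in 5 of 17 and 5 of 9. The gamma chain constant gene *Trgc1* was found in 8 of 17 and 7 of 9 and in none of the *Trdv4*-only barcodes. *Trgc4*, another gamma constant gene, was found in 4 of 17 and 3 of 9 and in 7 of 37 and 3 of 20 *Trdv4*-only barcodes. It was found in 10 of 339 and 17 of 281 CD3-negative *Ncr1* barcodes. *Trdc* was found in 21 of 37 and 10 of 20 *Trdv4*-only barcodes.

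*Il17a* transcripts were uneven between barcodes. Levels per barcode ran from 0 over a median of 317 to 7867 CPM in UT and from 0 over 629 to 14962 CPM in BUP, with 9 of 17 and 7 of 9 barcodes above 0. One UT barcode held 58 of the 107 *Il17a* UMIs and 1 BUP barcode 49 of 103, so the summed levels of 1690 and 2126 CPM rest on few barcodes. The partner cytokines were nearly absent, with 1 *Il17f* UMI in UT and none in BUP, and no *Il22* UMI in UT and 1 in BUP. *Ifng* had no UMI in either library, which allows up to 47.4 CPM in UT and 61.9 CPM in BUP at 3 counts.

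*Scart1* and *Scart2* lie side by side on chromosome 7 (GRCm39, 139798180 to 139811058 and 139827197 to 139880649, both on the plus strand), with 16.1 kb between them. None of the 83 barcodes of the gamma-delta rule had UMIs of both. As both are placing genes, this is a description of the members and was not examined over all barcodes. *Scart1* was found in 10 UT and 5 BUP barcodes and *Scart2* in 5 and 3, while 3 further barcodes had *Il17a* alone. All 79 UT and 81 BUP *Trdv4* UMIs of the *Il17a*/*Scart* barcodes were in *Scart1* barcodes, 8 of 10 UT and 5 of 5 BUP. *Scart2* barcodes had it in 0 of 5 and 0 of 3. *Trgv6*, the gamma variable segment of the fetal-derived IL-17 subset that pairs with the delta segment *Trdv4*, showed the same division, with 7 of 10 and 4 of 5 *Scart1* barcodes and 0 of 5 and 0 of 3 *Scart2* barcodes. *Trac* was found in 1 of 10 and 0 of 5 *Scart1* barcodes and in 3 of 5 and 1 of 3 *Scart2* barcodes. For *Trdc* these counts were 5 of 10 and 4 of 5 *Scart1* barcodes and 1 of 5 and 1 of 3 *Scart2* barcodes. *Trdv4*, *Trgv6* and *Trdc* thus marked mainly the *Scart1* barcodes, but other receptor genes did not follow this division. The gamma segment *Trgv2* was found in 5 of 10 and 1 of 5 *Scart1* barcodes and in 3 of 5 and 1 of 3 *Scart2* barcodes. The delta segment *Trdv5* was found in 0 of 10 and 0 of 5 *Scart1* barcodes and in 1 of 5 and 1 of 3 *Scart2* barcodes. *Trbc2* was found in 3 of 10 and 4 of 5 *Scart1* barcodes. The receptor type of the barcodes without *Scart1* was not settled. In *Scart1* barcodes *Trdv4* reached 23 UMIs in 1 UT barcode and 36 in 1 BUP barcode, whereas the highest *Trdv4*-only values were 5 and 6. Outside the gamma-delta rule *Trgv6* was not restricted to these cells, since 31 of 743 BUP CD8 T barcodes and 1 of 444 UT had it.

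Among the genes that set *Il17a*/*Scart* barcodes apart from *Trdv4*-only barcodes, 6.59% of 728 tested genes were at least 2-fold higher in both libraries and 8.1% at least 2-fold lower. All 5 tested genes of 29 measured genes of IL-17-producing gamma-delta cells were higher, with a median log2 ratio of 4.31 against -0.06 over all tested genes. The count minimum can be reached through 1 side alone, and *Cxcr6* was found in only 4 of 37 UT and 0 of 20 BUP *Trdv4*-only barcodes. The rest of the 29 genes had too few UMIs to be tested, so these list values are a description. *Cxcr6*, a homing receptor of tissue-resident lymphocytes, had 1674 CPM in UT and 1053 in BUP, against 443 and 373 in CD8 T and 7.88 and 6.23 in *Ncr1* barcodes. *Tmem176b*, an endosomal ion channel, had 1232 and 1239 CPM against 66.9 and 58.3 in *Trdv4*-only barcodes. *Tmem176a*, its partner gene, was found in 14 of 17 and 9 of 9 barcodes at 632 and 929 CPM.

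*Ramp1*, which encodes the receptor partner for the neuropeptide CGRP, was the most abundant of 22 genes of acetylcholine, adrenergic and CGRP signaling in these barcodes and the only one of them with enough UMIs to be tested. Its level per *Il17a*/*Scart* barcode ran from 0 over a median of 634 to 2306 CPM in UT and from 0 over 734 to 2225 CPM in BUP, with UMIs in 12 of 17 and 7 of 9 barcodes. The summed levels were 885 (668 to 1149) and 888 (642 to 1196) CPM, so UT and BUP ranges overlapped and the log2 ratio BUP over UT was 0.01 (-0.60 to 0.60). Against *Trdv4*-only barcodes *Ramp1* was 8.27-fold higher in UT and 7.62-fold higher in BUP, and against CD8 T barcodes 34.7-fold and 56.1-fold. *Calcrl*, the receptor that RAMP1 joins to bind CGRP, had no UMI in *Il17a*/*Scart* barcodes of either library. *Chat*, which makes acetylcholine, had no UMI in *Foxp3*, *Il17a*/*Scart* or *Trdv4*-only barcodes.

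**Figure D2:**
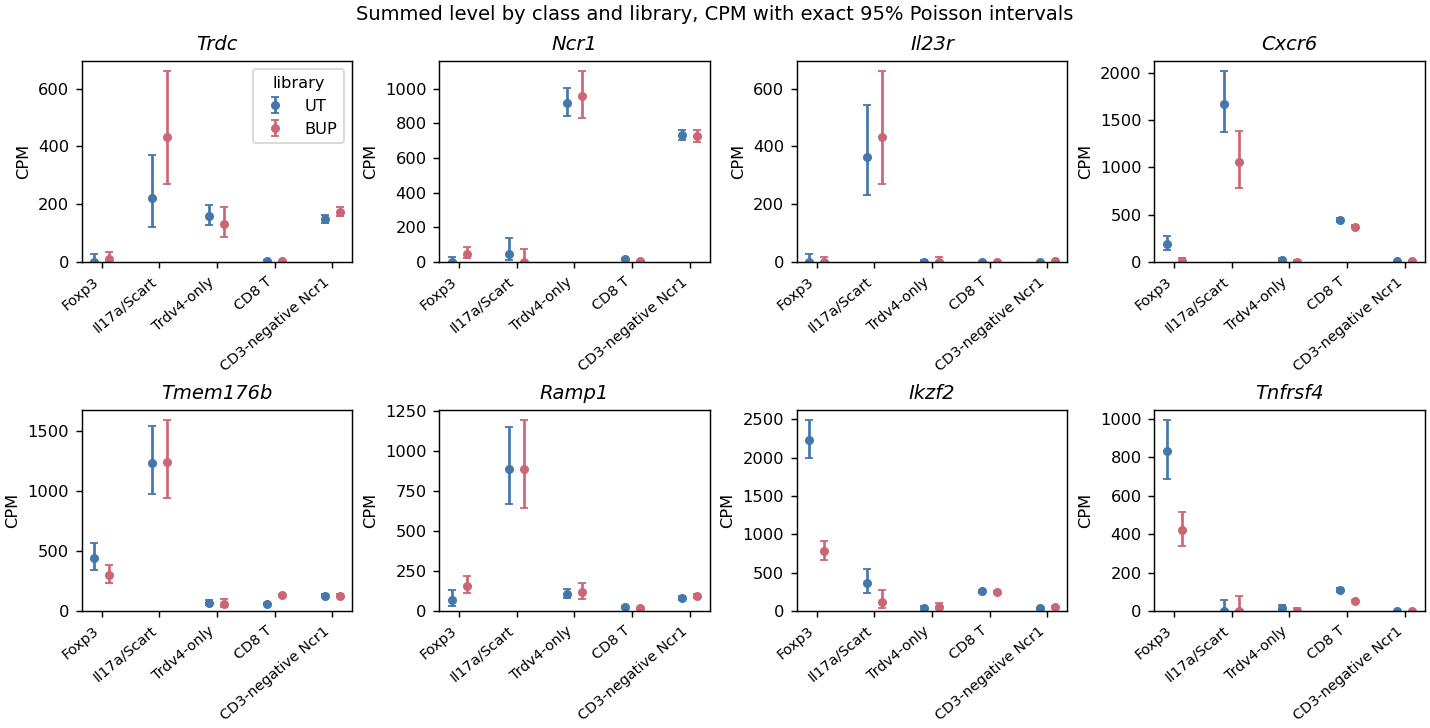
Summed CPM of 8 genes (y axes from 0) in *Foxp3*, *Il17a*/*Scart*, *Trdv4*-only, CD8 T and CD3-negative *Ncr1* barcodes, blue for UT and red for BUP, with exact 95% Poisson intervals. *Il23r*, *Cxcr6*, *Tmem176b* and *Ramp1* stand highest in *Il17a*/*Scart* barcodes of both libraries, *Ncr1* in *Trdv4*-only barcodes and the *Ncr1* barcodes it defines, and *Ikzf2* and *Tnfrsf4* in *Foxp3* barcodes.

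Immediate early genes, which are transcribed within minutes of a stimulus and also during tissue dissociation, were higher in *Il17a*/*Scart* barcodes as well. Of 13 tested genes of that list, 8 were at least 2-fold higher and 1 lower in both libraries, with a median log2 ratio of 1.49. *Fos* was found in 17 of 17 UT and 9 of 9 BUP barcodes at 2717 and 1755 CPM, against 292 and 121 CPM in *Trdv4*-only barcodes. The activation marker *Cd69* had 1769 and 1982 CPM against 235 and 209. Of 10 tested cytotoxic genes, 9 were lower in both libraries and none higher. *Gzmc* had no UMI in *Il17a*/*Scart* barcodes, which at 3 counts is at least 119-fold lower than in UT and at least 136-fold lower than in BUP *Trdv4*-only barcodes. By size of the difference the genes that led were *Cxcr6*, *Tmem176a*, *Tmem176b*, *Fos*, *Ramp1*, *Cd69*, *Emb*, *Ikzf3*, *Jun* and *Zfp36l1* upward and *Gzmc*, *Gzmf*, *Gzma*, *Spp1*, *Plac8*, *Irf8*, *Nkg7*, *Gzmd*, *Prf1* and *Gzme* downward.

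In the *Foxp3* barcodes, *Foxp3* itself, on chromosome X (GRCm39, 7439883 to 7461484, plus strand), ran from 109 over a median of 864 to 4226 CPM per UT barcode and from 75.0 over 461 to 2364 CPM per BUP barcode. These values chose the members, and 3 barcodes of each library rested on 1 *Foxp3* UMI. *Foxp3* also had a UMI in 39 UT and 33 BUP barcodes without CD3, of which 3 and 0 had at least 3 of the 6 genes named above. *Lyz2* kept out 20 UT and 10 BUP *Foxp3* barcodes with CD3 and no CD8, and 18 and 9 of these had at least 3 of the 6 genes. The highest *Lyz2* level inside the limit was 16.8 per 10000 in UT and 18.8 in BUP, and the lowest outside was 20.2 and 35.0. For the gamma-delta rule the corresponding values were 19.5 and 8.13 inside and 22.6 and 26.2 outside, with 19 and 5 barcodes kept out.

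Against CD8 T barcodes, 3.65% of 8302 tested genes were at least 2-fold higher in *Foxp3* barcodes of both libraries and 2.99% at least 2-fold lower. Of 24 tested type I interferon response genes 17 were at least 2-fold higher in both libraries and all 24 were positive, with a median log2 ratio of 1.71 against 0.00 over all tested genes. All 5 tested MHC class II genes were positive too, 4 of them past 2-fold, with a median of 2.19, and the list summed to 2554 UT and 5721 BUP CPM in *Foxp3* barcodes against 884 and 792 in CD8 T barcodes. Most UMIs of *Cd74*, a gene of that list, sat in few *Foxp3* barcodes, as given further below. Of 11 tested macrophage markers 1 was at least 2-fold higher, 6 were positive in both libraries and none negative, with a median of 1.07. The macrophage markers summed to 1112 and 2979 CPM in *Foxp3* barcodes (0 to 7336 and 0 to 18300.1 per barcode) against 971 and 894 CPM in CD8 T barcodes (0 to 12517 and 0 to 14005). The neutrophil markers summed to 21.1 and 5614 CPM against 679 and 581. The part of these other cells' transcripts in the interferon values was not tested. *Isg15*, a ubiquitin-like interferon-induced protein, had 676 and 489 CPM in *Foxp3* barcodes and 97.6 and 116 CPM in CD8 T barcodes. *Isg15* was concentrated, with 64 of 96 UT and 90 of 105 BUP UMIs in 3 barcodes each. *Ifi27l2a*, another interferon-induced gene, was broader, found in 19 of 24 UT and 19 of 20 BUP barcodes at 1133 and 1145 CPM, against 189 and 180 CPM in CD8 T barcodes. The interferon gamma list had 9 of 20 tested genes higher and none lower.

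Genes of regulatory T cells followed the label on the same comparison. Of 18 tested genes of tumor effector regulatory T cells, 8 were at least 2-fold higher in both libraries, none was lower, and the median was 1.20. *Klrg1*, a receptor of terminally differentiated cells, led all genes with log2 ratios of 5.58 in UT and 4.59 in BUP. *Maf* and *Rora*, transcription factors of tissue regulatory T cells, had log2 ratios of 3.99 and 4.04 and of 4.64 and 3.80. *Itgb7*, an integrin chain of gut homing, had 331 and 237 CPM against 24.1 and 17.4. Of 12 tested cytotoxic genes 9 were lower in both libraries, among them *Klrd1*, an NK receptor chain, with no UMI in UT and 55.9 CPM in BUP *Foxp3* barcodes against 725 and 694 CPM. *Rln3*, *Ass1*, *Sh3rf1*, *Ly6a*, *Iigp1* and *Ifit3* were the further genes that led upward, and *Serpinb9b*, *Nrgn*, *Gzmf*, *Gldc*, *Klrc1*, *Klrd1*, *Fasl*, *Klrh1*, *Trbv31* and *Ctsw* led downward.

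Side by side, *Foxp3* barcodes and all barcodes of the gamma-delta rule differed by genes of their own kind and by the NK transcripts of the *Trdv4*-only barcodes. Of 1511 tested genes, 4.57% were at least 2-fold higher in *Foxp3* barcodes in both libraries and 4.04% at least 2-fold lower. The median over genes with at least 10 UMIs on each side was shifted by 0.40 on the log2 scale in UT and by -0.0040 in BUP. *Tnfrsf4* had 830 (687 to 994) CPM in UT and 419 (337 to 515) in BUP *Foxp3* barcodes, against 13.6 CPM in UT and no UMI in BUP gamma-delta rule barcodes, which was 60.9-fold higher in UT and at least 35.5-fold higher in BUP at 3 counts over the subset. *Ly6a*, which encodes SCA-1, had 2787 and 1271 CPM against 131 and 62.9. *Cd5*, a restraint on receptor signaling, had 408 and 237 CPM against 18.7 and 3.93. *Ifi27l2a*, *Ikzf2*, *Rln3*, *Isg15*, *Ccl3*, *Ass1* and *Igtp* completed the 10 genes that led upward.

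In the other direction *Ncr1* had no UMI in UT and 46.6 CPM in BUP *Foxp3* barcodes against 826 and 778 CPM, and *Ctsw*, a protease of cytotoxic cells, had 7.04 and 32.6 CPM against 508 and 649. *Gzmc*, *Serpinb9b*, *Gzmf*, *Nrgn*, *Ctla2a*, *Gzme*, *Xcl1* and *Car2* made up the rest of the 10 that led downward. *Trdc* had no UMI in UT and 2 UMIs in BUP *Foxp3* barcodes, against 97 and 48 UMIs. Of 7 tested identity genes of regulatory T cells, 5 were at least 2-fold higher in *Foxp3* barcodes and none lower, and of 10 tested cytotoxic genes 7 were lower and none higher. All 4 tested MHC class II genes were higher, with 3 barcodes holding 168 of 177 UT and 423 of 444 BUP *Cd74* UMIs. Against the *Il17a*/*Scart* barcodes alone, 7.5% of 573 tested genes were at least 2-fold higher in *Foxp3* barcodes and 3.84% at least 2-fold lower. The 2 cytotoxic genes tested there, *Gzmb* and *Nkg7*, were instead at least 2-fold higher in *Foxp3* barcodes of both libraries, with a median log2 ratio of 3.23, while *Klrk1*, below the count minimum, had log2 ratios of -3.70 and -2.79. *Nkg7* had 1457 and 642 CPM in *Foxp3* barcodes against 79.0 and 20.6 CPM in *Il17a*/*Scart* barcodes, the latter from 5 UMIs and 1 UMI, with log2 ratios of 4.21 (2.96 to 5.84) and 4.96 (2.46 to 10.27). *Prf1* had a log2 ratio of 0.68 (-0.80 to 2.47) in UT and was at least 3.16-fold higher in BUP.

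**Figure D3:**
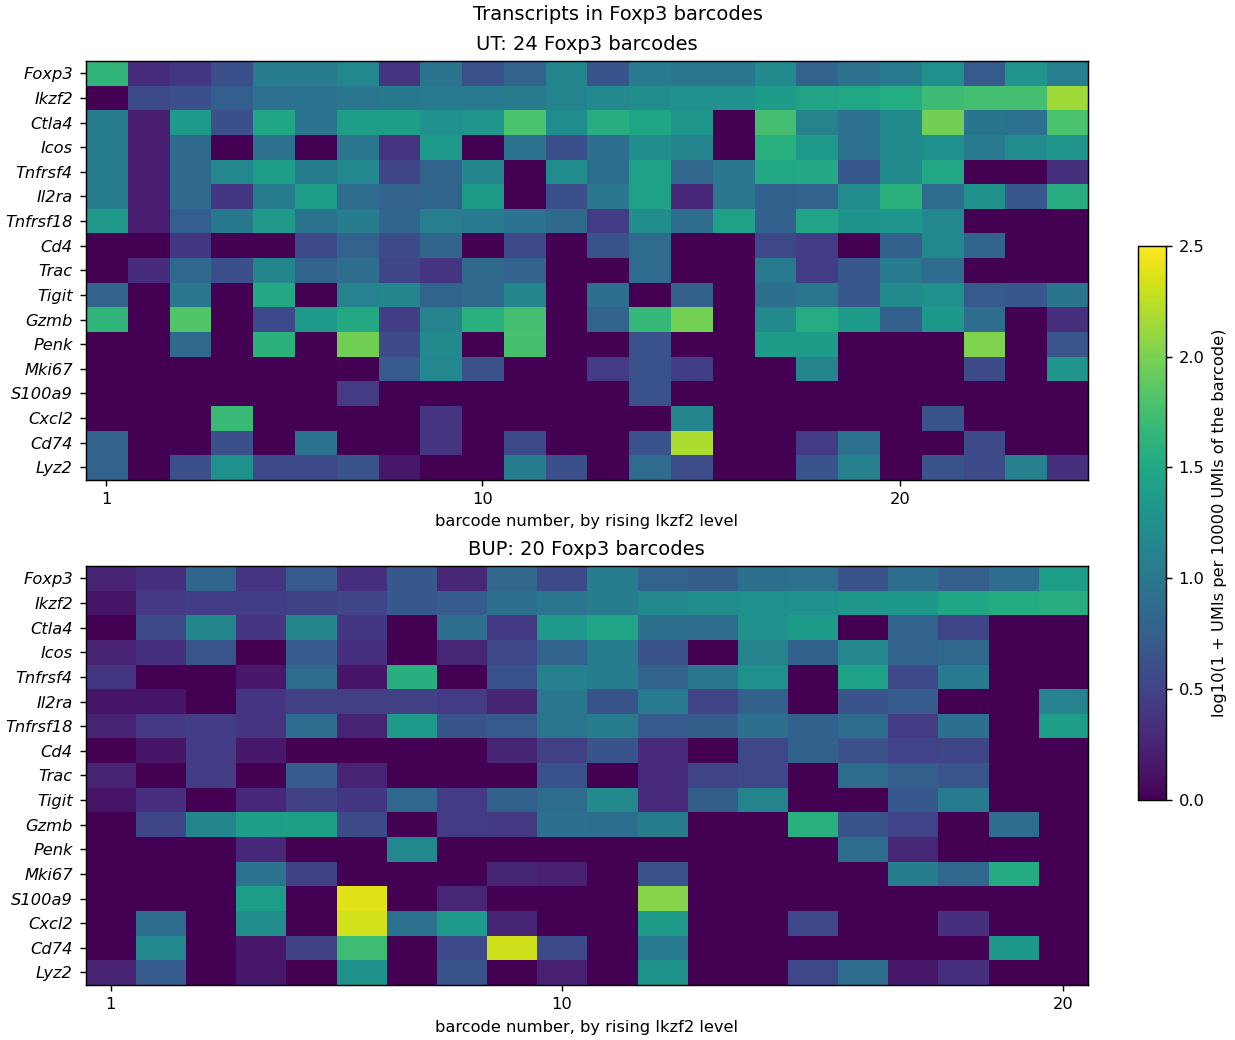
Each column is 1 *Foxp3* barcode (24 UT in the upper panel, 20 BUP in the lower, by rising *Ikzf2*), each row a gene, and the color is log10(1 + UMIs per 10000 UMIs of the barcode). *Ikzf2*, *Ctla4* and *Icos* run through most columns, while *S100a9* stands in 2 of 24 UT and 4 of 20 BUP columns.

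Genes of regulatory T cells were lower in sum in BUP than in UT *Foxp3* barcodes. When only barcodes with no *Lyz2* UMI were used, several of them were not lower, as given further below. *Ctla4* ran from 0 over a median of 1828 to 9140 CPM per UT barcode and from 0 over 398 to 2783 CPM per BUP barcode. Summed, it was 2224 (1985 to 2483) CPM in UT and 545 (450 to 653) in BUP, a log2 ratio of -2.03 (-2.35 to -1.72). The ranges per barcode overlapped, since 1 of 24 UT and 5 of 20 BUP barcodes had no *Ctla4* UMI. *Il2ra* had medians of 679 and 195 CPM and summed levels of 880 and 247 CPM, a log2 ratio of -1.83 (-2.33 to -1.36). *Icos*, which neighbors *Ctla4* on chromosome 1, had medians of 819 and 279 CPM and a log2 ratio of -1.69 (-2.17 to -1.23).

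For *Ikzf2* the medians were closer than the sums. They were 1326 and 952 CPM, while the sums were 2238 and 782 CPM with a log2 ratio of -1.52 (-1.80 to -1.24), and 1 UT barcode held 116 of 318 UMIs. *Tnfrsf4* had medians of 962 and 294 CPM and a log2 ratio of -0.99 (-1.40 to -0.58). *Tnfrsf9* (4-1BB), *Tnfrsf18* and *Tigit* had log2 ratios of -1.32, -1.08 and -1.34. After thinning to 2000 UMIs, *Il2ra* was found in 17 of 22 UT and 4 of 18 BUP barcodes and *Ctla4* in 21 of 22 and 12 of 18. Both were thus found in a smaller share of BUP barcodes at equal depth as well. The same held for rule genes, with *Foxp3* in 18 of 22 and 8 of 18, *Cd3e* in 18 of 22 and 12 of 18 and *Cd3g* in 17 of 22 and 10 of 18.

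The gene lists hold the genes named above, so their counts are not further support. *Icos*, *Tnfrsf4*, *Tnfrsf9* and *Tnfrsf18* are also among the costimulatory receptors. Over 1213 tested genes, 7.34% were at least 2-fold higher in BUP *Foxp3* barcodes and 11.2% at least 2-fold lower. When the libraries were scaled by the median ratio of genes, which moved all log2 ratios by 0.28, these shares were 12.9% and 6.02%. Of 9 tested identity genes of regulatory T cells, 6 were at least 2-fold lower and none higher, with a median log2 ratio of -1.23 against -0.03 over all tested genes. Of 13 tested tumor effector genes, 9 were lower and 1, the IL-1 decoy receptor *Il1r2*, was higher, with a median of -1.32. Of 6 tested costimulatory receptors, 5 were lower, among them *Cd28* with 577 and 140 CPM. Of 7 tested cell-cycle genes none was 2-fold different, and *Mki67* had 345 (255 to 456) and 265 (201 to 344) CPM.

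**Figure D4:**
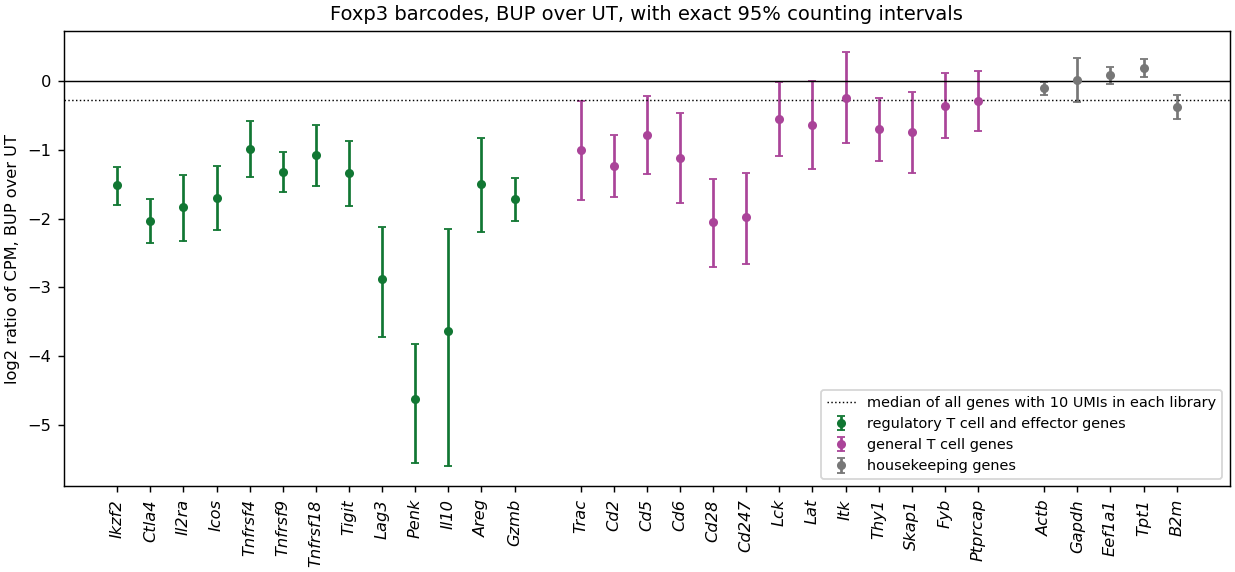
Log2 ratio of summed CPM, BUP over UT, in *Foxp3* barcodes for 13 regulatory T cell and effector genes, 13 general T cell genes and 5 housekeeping genes, with exact 95% counting intervals. The solid line is 0 and the dotted line the median of all genes with at least 10 UMIs in each library (-0.28). The 13 regulatory and effector genes are a chosen set and lie between -4.62 (*Penk*) and -0.99 (*Tnfrsf4*). The effector gene *Il1r2*, the inhibitory receptor gene *Lilrb4a* and the granzyme gene *Gzma* are not in the set. Each of these was at least 2-fold higher in BUP, so the range does not describe all genes of these kinds.

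Several effector products were lower in sum, while *Gzma* was higher, as given further below. *Penk*, which encodes proenkephalin, a precursor of opioid peptides that activated regulatory T cells can make, had UMIs in 11 of 24 UT and 4 of 20 BUP barcodes, with 0 over a median of 0 to 10227 CPM in UT and 0 over 0 to 1367 CPM in BUP. Its sums of 1492 and 60.5 CPM gave a log2 ratio of -4.62 (-5.56 to -3.82), and 3 UT barcodes held 150 of 212 UMIs. *Il10*, the suppressive cytokine, had 33 UMIs in 8 UT and 4 UMIs in 3 BUP barcodes. *Areg*, a growth factor of tissue repair, was found in 5 barcodes of each library at 394 and 140 CPM. *Lag3*, an inhibitory receptor, had 584 and 79.1 CPM with a log2 ratio of -2.88 (-3.73 to -2.12). *Gzmb* was found in 19 of 24 and 14 of 20 barcodes at 2006 and 610 CPM.

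Transcripts of T cells in general were lower in the same barcodes. Of 13 tested general T cell genes outside the rule, 4 were at least 2-fold lower and none higher in BUP, and all 13 had a negative log2 ratio, with a median of -0.74, whereas 5 housekeeping genes had a median of 0.02. The rule gene *Cd3e* had 964 and 368 CPM. Median depth was 3935.5 UMIs in UT and 6931 in BUP *Foxp3* barcodes. The 12 macrophage markers summed to 1112 CPM in UT (11 of 12 genes with a UMI, 0 to 7336 CPM per barcode) and 2979 CPM in BUP (12 of 12, 0 to 18300.1 CPM per barcode). The 5 neutrophil markers summed to 21.1 CPM in UT, with *Csf3r*, *Cxcr2* and *Retnlg* at 0 (0 to 326 CPM per barcode), and to 5614 CPM in BUP (5 of 5 genes, 0 to 34377 CPM per barcode). Their part in the lower levels was not tested. Without the 3 BUP barcodes with 10 or more UMIs of *S100a8* and *S100a9* the log2 ratios were -1.77 for *Ctla4* and -1.29 for *Ikzf2*. When only barcodes with no *Lyz2* UMI were used, 7 UT and 9 BUP, *Ikzf2* had a log2 ratio of -0.09, *Ctla4* of -0.98 and *Tnfrsf4* of 0.49. Of the *Foxp3* barcodes, 0 UT and 3 BUP were among the 6% of each library with the highest doublet scores.

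The genes that led upward in BUP *Foxp3* barcodes were largely of myeloid cells and sat in few barcodes. *S100a9*, a neutrophil protein, had 14.1 CPM in UT and 3561 in BUP, with 764 of 765 BUP UMIs in 3 barcodes. *Cxcl2*, a neutrophil attractant, had 331 and 3002 CPM with 599 of 645 BUP UMIs in 3 barcodes. *Gzma*, granzyme A, had 1 UMI in UT and 112 in BUP, of which 111 were in 1 barcode. *S100a8*, *Acod1*, *Cstdc4*, *Mgp*, *G0s2*, *Plaur*, *Retnlg* and *Il1b* were the further genes that led upward. Downward, *Pf4*, *Penk*, *Satb1*, *Lag3*, *Fabp5*, *Cxcl10*, *Hp*, *Rabgap1l*, *Prkca* and *Ap3b1* led, and 67 of 70 UT *Pf4* UMIs were in 1 barcode. *Satb1*, a chromatin organizer, had 44 of its 68 UT UMIs in 1 barcode. Of the MHC class II genes 3 of 4 tested, and of the macrophage markers 4 of 5 tested, were at least 2-fold higher in BUP.

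In the barcodes of the gamma-delta rule, 0.65% of 2925 tested genes were at least 2-fold higher in BUP and 3.18% at least 2-fold lower. The NK gene *Ncr1* had 826 and 778 CPM with a log2 ratio of -0.09 (-0.33 to 0.15), and *Trdc* had 165 and 189 CPM with a ratio of 0.19 (-0.34 to 0.70). The largest lower values rested on few UT barcodes. *S100a9* had 1332 CPM in UT, with 775 of 782 UMIs in 3 barcodes, and 19.7 CPM in BUP. *Gzmg*, a granzyme, had 2268 and 62.9 CPM with 1310 of 1331 UT UMIs in 3 barcodes, and *Hmga2* had 142 of 146 UT UMIs in 3 barcodes. *S100a8*, *Cxcl2*, *Sema3a*, *Ier3*, *Ccl3*, *Il1b* and *Fn1* also led downward. Upward, *Trip11*, *Gm2000*, *Igf1r*, *Snx18*, *Keap1*, *Maff*, *Mdp1*, *Cd7*, *Clk4* and *H1f2* led with log2 ratios of 1.21 to 1.35.

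Taken alone, the *Il17a*/*Scart* barcodes showed no 2-fold difference between BUP and UT in any of 9 tested genes of IL-17-producing gamma-delta cells, and their median log2 ratio was 0.06. Of all 318 genes tested there, 2.2% were at least 2-fold higher in BUP and 1.89% at least 2-fold lower (7 and 6 genes). *Cxcr6* had a log2 ratio of -0.67 (-1.18 to -0.17), *Tmem176b* of 0.01 (-0.50 to 0.51) and *Cd69* of 0.16 (-0.24 to 0.57). *Hmgb2*, a chromatin protein that is high in dividing cells, had 158 CPM in UT and 970 in BUP, with 42 of 47 BUP UMIs in 3 barcodes. Of 8 tested genes of glycolysis and hypoxia 7 had a negative log2 ratio, 2 of them past 2-fold, and the median was -0.83 against 0.02 over all tested genes. *Gapdh*, a glycolytic enzyme, had 995 and 454 CPM with a log2 ratio of -1.13 (-1.90 to -0.41). *Ly6a* had 727 CPM in 11 of 17 UT barcodes and 124 CPM in 2 of 9 BUP barcodes.

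As shares of T barcodes (CD3 and low *Lyz2*, 817 UT and 1051 BUP), *Foxp3* barcodes made up 2.94% (1.89 to 4.34%) in UT and 1.90% (1.17 to 2.92%) in BUP, a difference of -1.03 points (-2.62 to 0.43). *Il17a*/*Scart* barcodes made up 2.08% (1.22 to 3.31%) and 0.856% (0.392 to 1.62%), a difference of -1.22 points (-2.54 to -0.0717). The whole gamma-delta rule gave 6.61% and 2.76%, a difference of -3.85 points (-5.98 to -1.86), and *Trdv4*-only barcodes 4.53% and 1.90%. CD8 T barcodes were 54.3% of the UT and 70.7% of the BUP T barcodes and so take up more of the denominator in BUP. Among CD8-negative T barcodes the *Foxp3* share was 7.10% in UT and 8.03% in BUP, a difference of 0.932 points (-3.55 to 5.73), and the gamma-delta rule share was 16.0% and 11.6%, a difference of -4.33 points (-10.0 to 1.64). The *Il17a*/*Scart* share there was 5.03% and 3.61%, a difference of -1.42 points (-4.91 to 2.34), an interval that included 0. Of all barcodes kept, *Foxp3* barcodes were 0.335% and 0.295% and *Il17a*/*Scart* barcodes 0.237% and 0.133%, and both differences had intervals that included 0. The mix of CD45+ and CD45- cells was set at sorting and enters the last shares.

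**Figure D5:**
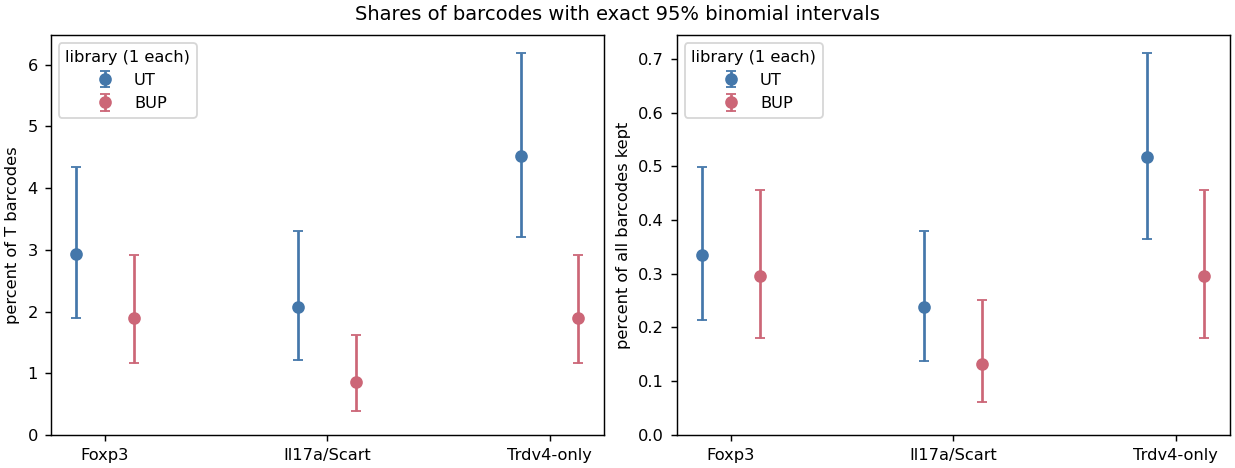
Shares of *Foxp3*, *Il17a*/*Scart* and *Trdv4*-only barcodes in percent of T barcodes (left) and of all barcodes kept (right), blue for UT and red for BUP, with exact 95% binomial intervals. All 3 points are lower in BUP in the left panel, and the *Foxp3* intervals overlap in both panels.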

How the data were processed

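Single-cell RNA was measured in 1 UT and 1 BUP library (10x 5' chemistry). Per the submitters' processing notes, the authors counted UMIs with Cell Ranger 8.0.1 on GRCm39 and used Seurat 5.0.1. The study's methods name another release of Cell Ranger 8. The deposited values are raw UMI counts per gene and barcode, neither normalized nor scaled. Barcodes over 100 UMIs and under 20% mitochondrial UMIs were kept.

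UMIs were summed over the barcodes of a subset and divided by the subset's total (CPM), with exact Poisson intervals, and log2 ratios have exact intervals given the total of both counts. Shares have exact binomial intervals and their differences combine both shares' limits. With 1 library per condition no test was run. Every interval is a 95% interval for counting error alone. A count of 0 was set at 3 counts for bounds and lists.

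Tested genes have at least 50 UMIs over both sides, with the rule genes left out. They can therefore include genes carried by few barcodes. Genes named are the 10 highest and 10 lowest log2 ratios among tested genes with UMIs in at least 10% of the barcodes of the higher side. In comparisons of subsets both limits held in each library, and the ranking used the ratio nearest 0 of the libraries. Genes of 32 lists are named as well, of which 409 of 422 genes are in the files. The members and lists were chosen with earlier results of these data known. The lists of 16 general T cell and 5 housekeeping genes were added after values were seen, as were the comparisons with CD8 T and CD3-negative *Ncr1* barcodes and the split of the gamma-delta rule.

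Alternatives were 2 placing UMIs, no *Lyz2* UMI, a stricter filter (1000 UMIs, 500 genes, 10% mitochondrial), removal of the top 6% of Scrublet scores, thinning to 2000 UMIs, other denominators, median-ratio scaling, the mean of each barcode's CPM and 20 UMIs per gene. Leaving out barcodes with neutrophil transcripts or *Ncr1*, and *Il17a*/*Scart* barcodes alone, were added after seeing the data. Scrublet itself marked 5 of 7163 UT barcodes (0.0698%), too few to be used, and 167 of 6776 BUP barcodes (2.46%), so doublets were not removed in the main values. Python 3.11.15, numpy 2.4.6, scipy 1.17.1, pandas 2.3.3, matplotlib 3.10.9 and scanpy 1.11.5 were used. The calculation was tested on simulated counts without spread between barcodes, so it does not cover UMIs that sit in few barcodes. Results on some genes are not reported here. Gene positions are from the GRCm39 annotation in the reference used here.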

Additional observations from a re-analysis of the deposited data

Results flagged for a closer look

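Among a chosen set of genes with at least 50 UMIs in each subset, 6 differed between UT and BUP in opposite directions. They did so in the *Foxp3* barcodes and in the barcodes of the gamma-delta rule, with both counting intervals away from 0. The difference itself was not tested, since each condition has 1 library. Genes outside the set were not searched, so 6 is not a total. *S100a8*, for example, was not in the set and had log2 ratios of 7.85 and -7.60. *Icos* had a log2 ratio BUP over UT of -1.69 in *Foxp3* barcodes and 0.98 in gamma-delta rule barcodes, and *Rora* of -1.36 and 0.68. Within the gamma-delta rule *Icos* had 0.49 (-0.31 to 1.28) in *Il17a*/*Scart* and 0.48 (-0.72 to 1.61) in *Trdv4*-only barcodes, and *Rora* 0.17 (-0.49 to 0.83) and -2.24 (-7.66 to 0.52, from 12 UMIs and 1 UMI), so neither gene's interval left 0 within a subset. The *Il17a*/*Scart* barcodes supplied 63308 of 586868 UT UMIs of the rule's set and 48440 of 254420 BUP UMIs. *S100a9* had 7.98 and -6.08, *Cxcl2* 3.18 and -6.53, and *Cd74* 0.73 and -1.61, and for these 3 genes most UMIs of the higher side sat in 3 barcodes. *Gzma* had 6.21 and -0.44, where 1 BUP *Foxp3* barcode held 111 of 112 UMIs.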

How the results depend on the processing

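No paired analysis was possible because each condition has 1 library. The numbers of barcodes (24 and 20 *Foxp3*, 17 and 9 *Il17a*/*Scart*) limit every value, and single barcodes held large parts of several sums.

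The difference in the *Foxp3* share, -1.03 points of T barcodes, was 0.932 points of CD8-negative T barcodes and 0.0659 points of barcodes with a *Ptprc* UMI. The difference in the gamma-delta rule share, -3.85 points, was -0.326 of all barcodes kept, -0.176 of *Ptprc* barcodes, -1.29 after thinning to 2000 UMIs, -1.29 without *Ncr1* barcodes and -1.22 for *Il17a*/*Scart* barcodes alone.

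In percent of tested genes at least 2-fold higher in BUP *Foxp3* barcodes (7.34), the value was 29.8 with no *Lyz2* UMI, 15.6 after thinning and 12.9 with median-ratio scaling, which gave 6.02 for lower genes. In the gamma-delta rule barcodes the higher share (0.65) was 1.08 with 2 placing UMIs, 5.12 with no *Lyz2* UMI, 2.20 for *Il17a*/*Scart* barcodes, 1.74 by the mean of each barcode's CPM and 2.83 at 20 UMIs per gene. The lower share there (3.18) was 6.15 with no *Lyz2* UMI, 1.89 for *Il17a*/*Scart* barcodes and 6.95 at 20 UMIs. For *Foxp3* over gamma-delta rule barcodes the higher share (4.57) was 1.95 with no *Lyz2* UMI, 1 after thinning (of 100 genes) and 7.50 against *Il17a*/*Scart* barcodes, and the lower share (4.04) was 7.79 with no *Lyz2* UMI and 2 after thinning.

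Of the named genes' alternative values, 183 of 190 in *Foxp3* barcodes, 66 of 73 in gamma-delta rule barcodes and 167 of 171 between the subsets kept their direction, while 38, 19 and 24 of them moved outside the main counting interval. Among genes at least 2-fold different, the log2 ratios that took the opposite sign were *Tnfrsf18* 0.47 and *Tigit* 0.42 with no *Lyz2* UMI and *Cxcl2* -0.13 without neutrophil transcripts in *Foxp3* barcodes, *Gzmg* 0.41 and *Cd7* -0.95 with 2 placing UMIs and *S100a9* 0.59 without neutrophil transcripts in gamma-delta rule barcodes, and *Prf1* 0.68 against *Il17a*/*Scart* barcodes. The cause was not tested.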

Other observations

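The inhibitory and metabolic genes of the *Foxp3* barcodes gave a few further values. *Tox*, a factor of chronically stimulated T cells, had 964 CPM in UT and 233 in BUP *Foxp3* barcodes, and *Ahr*, the aryl hydrocarbon receptor, 274 and 74.5 CPM. *Lilrb4a*, an inhibitory receptor shared with myeloid cells, had 49.3 and 507 CPM, in the opposite direction to *Ctla4*, *Tigit* and *Lag3*. None of 11 tested genes of glycolysis and hypoxia was 2-fold different, with a median log2 ratio of 0.09, beside 7.34% of all 1213 tested genes higher and 11.2% lower.

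In the *Il17a*/*Scart* barcodes the leukotriene B4 receptor *Ltb4r1* had 474 CPM in UT and 495 in BUP, and the IL-18 receptor *Il18r1* 379 and 372 CPM, with UMIs in 11 of 17 and 9 of 9 barcodes.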
